A study of Rattus norvegicus with 6 samples.

Results

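Calcium channels, stores and pumps were read out in cultured rat brain microvascular endothelial cells (rBMECs) that had been exposed to homocysteine (Hcy) or to vehicle (Veh). Members were chosen by gene symbol alone, and 78 of the 33566 genes in the count table matched. They comprise the pore-forming and auxiliary subunits of voltage-gated calcium channels, the ryanodine and IP3 receptors, the STIM and ORAI proteins, the TRPC, TRPM and TRPV channels, the PIEZO channels, the calcium pumps, the sodium-calcium exchangers and the mitochondrial uniporter complex. Also among the 78 are 2 genes whose symbols matched by their letters only: Trpc4ap, which encodes an adaptor protein, and Trpc5os, which lies opposite Trpc5.

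The cells were primary cultures from the cerebral cortex of Sprague-Dawley rats aged 18 to 22 days, purified in culture and used after 1 passage. Each group held 3 libraries of poly(A) RNA after 24 h of exposure, and the vehicle was water without Hcy. The treatment label gives 100 µM Hcy, whereas the protocol text also names a prepared solution of 50 µmol/L, so the dose is given here as labelled. The labels call the libraries biological replicates without saying whether they came from separate isolations, so the p-values measure the spread between these 6 libraries. No gene was deleted or overexpressed in either group, and the comparison addresses which calcium-handling transcripts differ when endothelial cells of the blood-brain barrier meet Hcy.

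Cytosolic calcium is kept far below the level outside the cell and inside the endoplasmic reticulum (ER). IP3 receptors release the ER store, STIM proteins sense its emptying and open ORAI channels in the plasma membrane, and SERCA, PMCA and SPCA pumps return calcium to the ER, the outside and the Golgi. Endothelial cells are regarded as non-excitable: they rely mainly on store release, store-operated entry, TRP channels and the mechanically gated PIEZO1, and calcium in these cells governs junctions, nitric oxide synthesis and permeability.

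The libraries held 14024997 to 16764584 counts, so that 3 counts correspond to 0.178 to 0.215 CPM (counts scaled to a library of 1000000, after TMM scaling). Of 18 endothelial markers looked for, 15 were tested, with Cdh5 at 1535 to 2039 CPM and Vwf at 1976 to 3003 CPM. Cldn5 was at 0 counts in all 6 libraries. The study detected the protein it encodes in rBMECs by Western blot, so this 0 is not read as absence of the transcript. Its cause was not tested, and other genes at 0 carry the same limit. Of the 15, 9 were above 0 and 6 below, and none passed an adjusted p of 0.05 (edgeR). At an unadjusted p under 0.05 there were 8, against 13.4% of all genes. Vwf, Kdr, Flt1 and Sox17 were higher without overlap (log2 fold change 0.36, 0.37, 0.25 and 0.29) and Robo4 with overlap (2.04). Tek, Slc2a1 and Mfsd2a were lower without overlap (-0.24, -0.32 and -0.44). Slc2a1 (adjusted p = 0.0536, edgeR) passed in 4 of 13 alternative analyses. Of 10 pericyte and smooth muscle markers, Tagln, Cnn1 and Acta2 fell with Hcy (log2 fold change -0.88, -1.39 and -0.64; edgeR adjusted p = 0.000801, 0.00177 and 0.0248), and the list's summed TPM (a level per length, scaled to the same total in every library) was 991 to 1004 in Hcy against 1676 to 1881 in Veh. Acta2 did not pass without Hcy replicate 1, 2 or 3 or Veh replicate 1 (adjusted p = 0.0816, 0.114, 0.146 and 0.101). The other 7 were sparse, with at most 54 counts in any library (Pdgfrb), and none of them passed: Cspg4, Rgs5, Abcc9, Pdgfrb and Des were above 0 (log2 fold change 1.66, 1.26, 0.87, 0.73 and 0.55) and Kcnj8 and Myh11 below (-0.99 and -0.04). The list thus had 5 genes above 0 and 5 below, with a median of 0.25, opposite in sign to its summed level. The summed TPM reached no more than 27.0 for fibroblast, 8.58 for neuron, 1.16 for astrocyte, 3.52 for microglia and macrophage, 13.5 for oligodendrocyte and 0.581 for epithelial markers, with Rbfox3, Snap25, Map2, Aqp4, Ptprc and Cx3cr1 at 0. One library, Veh replicate 3, stood apart from its group: its counts differed from those of Veh replicates 1 and 2 by 29.5 and 26.2 times the counting variance, against 5.77 to 7.76 for the other pairs within a group. Genes of at least 5000 bases were lower there than the Veh mean by a median of -0.18 on the log2 scale and genes under 2000 bases were higher by 0.12, and values without this library are given beside Trpv4, Trpm6, Trpm1, Trpm4, Orai1, Cacna1d, Itpr3, Itpr1, Piezo2 and Slc8a1.

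Of the 78 members, 48 reached 10 summed counts and were tested, and 36 of these were well counted, with a mean of at least 10 counts per library. Another 8 members had no count in any library (Trpv5, Trpc5, Trpm8, Trpc7, Cacng2, Cacng3, Cacng6 and Trpc5os), and 22 had between 1 and 9 counts over all 6. With edgeR, 1 of the 48 tested members, Trpv4, passed an adjusted p of 0.05, whereas 2.34% of the 14603 genes tested did so, and 1.01% did so with a lower level in Hcy. None of the 48 also reached an absolute log2 fold change of 1, a pair of thresholds that 0.486% of all genes passed. DESeq2 likewise called 0 members at both thresholds, with 7 at an unadjusted p under 0.05, where it had 11.2% of all genes. At an unadjusted p under 0.05, edgeR had 8 of 48 members, 4 higher and 4 lower in Hcy, against 13.4% of all genes. For 15 of 48 members (31.2%) each Hcy library lay on the same side of each Veh library, as for 20.1% of all genes tested. Of these, 6 were higher in Hcy, against 10.8% of all genes, and 9 were lower, against 9.27%. The median log2 fold change was -0.08 over the 48 members and -0.02 over all genes, with 22 members above 0 and 26 below. The member median was -0.007 without Veh replicate 1 and turned to 0.016 without Veh replicate 2.

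**Figure D1:**
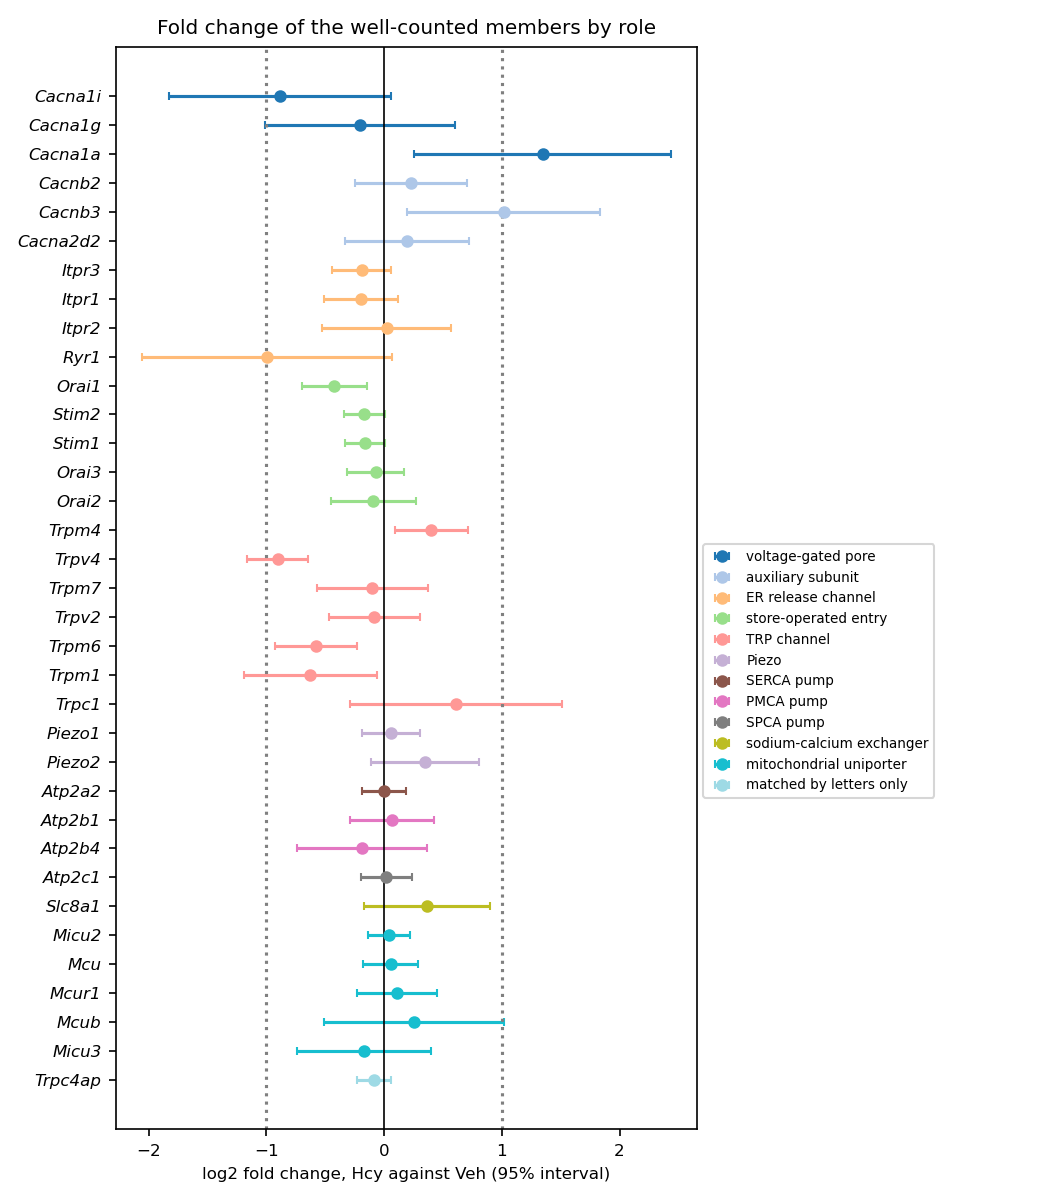
Log2 fold change of Hcy over Veh (x axis) for 35 well-counted members, grouped by role (y axis); points are edgeR estimates and bars are 95% intervals from 3 libraries per group. Trpv4 lies at -0.91 with an interval from -1.16 to -0.65, and the intervals of most stores, pumps and mitochondrial members span 0.

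Trpv4, a calcium-permeable TRP channel that opens to osmotic swelling, warmth and lipid mediators, was the member that fell. Its levels were 12.6, 11.8 and 10.3 CPM in Hcy replicates 1, 2 and 3 against 21.8, 21.5 and 21.5 CPM in the Veh replicates. Every Hcy library lay below every Veh library, and the Veh libraries agreed to within 0.205 CPM (SD, n = 3). The log2 fold change was -0.91 ± 0.11 (SE; adjusted p = 0.00613, edgeR), or 0.534 of the Veh level, and Trpv4 ranked 55 of 14603 genes by p. It passed the adjusted p in each of 13 alternative analyses, and without Veh replicate 3 the value was -0.91 (adjusted p = 0.00218). The smooth muscle genes Tagln, Cnn1 and Acta2 fell in the same libraries, and in this bulk RNA fewer cells of a type and less RNA per cell cannot be told apart. Their part in the Trpv4 result was not tested.

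The deposited table places Trpv4 on the plus strand of chromosome 12 from 47698947 to 47737902, on a build that the table does not name. Since the study asked about DNA methylation, which in mammals falls on CG dinucleotides, the 250 bases before the RefSeq start of the genes on which the results turn are printed with each CG in capitals (RefSeq, assembly GRCr8, a different coordinate system from the deposited positions; 1 start per gene). The first, for Trpv4, lies at chr12:47598938-47599187 on the plus strand and holds 25 CG, more than 90.3% of 33465 rat promoters.
Trpv4: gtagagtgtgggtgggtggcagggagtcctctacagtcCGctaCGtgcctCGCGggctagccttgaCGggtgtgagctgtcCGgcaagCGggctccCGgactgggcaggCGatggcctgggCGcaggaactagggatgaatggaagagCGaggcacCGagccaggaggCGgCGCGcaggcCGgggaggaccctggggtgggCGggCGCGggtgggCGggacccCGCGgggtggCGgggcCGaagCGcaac

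Among the other vanilloid-type channels, Trpv2 was the one of comparable abundance. Trpv2, which is found in endothelium and macrophages, was read at 11.3, 9.54 and 7.52 CPM in Hcy and 10.98, 9.88 and 9.07 CPM in Veh, and the groups overlapped (log2 fold change -0.08, 95% interval -0.47 to 0.30). Trpv4 therefore made up 50.2 ± 2.36% of the family's summed TPM in Hcy and 64.4 ± 2.09% in Veh (SD, n = 3), and the ratio of Trpv4 to Trpv2 was 1.08 ± 0.106 against 1.90 ± 0.164. The groups did not overlap, and the exact two-sided permutation p was 0.1, the smallest that 3 against 3 libraries allow. For the share, the permutation p adjusted over the leading members of the families was 0.3. Trpv1 and Trpv6 had 12 and 41 counts over all 6 libraries, Trpv3 had 1 and Trpv5 had none.

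The melastatin-type TRP channels were divided. Trpm6, a magnesium- and calcium-permeable channel fused to a kinase, had 5.60, 6.25 and 5.55 CPM in Hcy and 9.91, 8.09 and 7.96 CPM in Veh. All 3 Hcy libraries were below all 3 Veh libraries, but the difference of -0.58 ± 0.16 on the log2 scale did not pass the correction (adjusted p = 0.112, edgeR). It passed without Veh replicate 3 (-0.63, adjusted p = 0.0491), where 6.67% of all genes passed. Trpm1, best known from retinal bipolar cells and melanocytes, had 27, 28 and 28 counts in Hcy and 44, 37 and 51 in Veh, again without overlap (-0.63 ± 0.25, adjusted p = 0.308; -0.44 without Veh replicate 3).

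Trpm4, which is opened by calcium but passes monovalent cations, lay on the other side. Its levels were 35.4, 29.6 and 36.9 CPM in Hcy and 28.8, 27.3 and 21.0 CPM in Veh, with the lowest Hcy library just above the highest Veh library. The log2 fold change was 0.40 ± 0.14 (adjusted p = 0.220, edgeR), and 0.28 without Veh replicate 3 (adjusted p = 0.167). Trpm7, the kinase-linked relative of Trpm6, ranged from 19.96 to 29.6 CPM in Hcy and from 19.0 to 32.5 CPM in Veh and overlapped widely. Within the family, the share of Trpm4 was 54.2 ± 6.30% in Hcy and 43.5 ± 0.913% in Veh, and that of Trpm6 was 7.42 ± 0.704% and 11.8 ± 1.66%. Trpm2 had 18 counts in all, and Trpm3 and Trpm5 had 6 and 5.

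**Figure D2:**
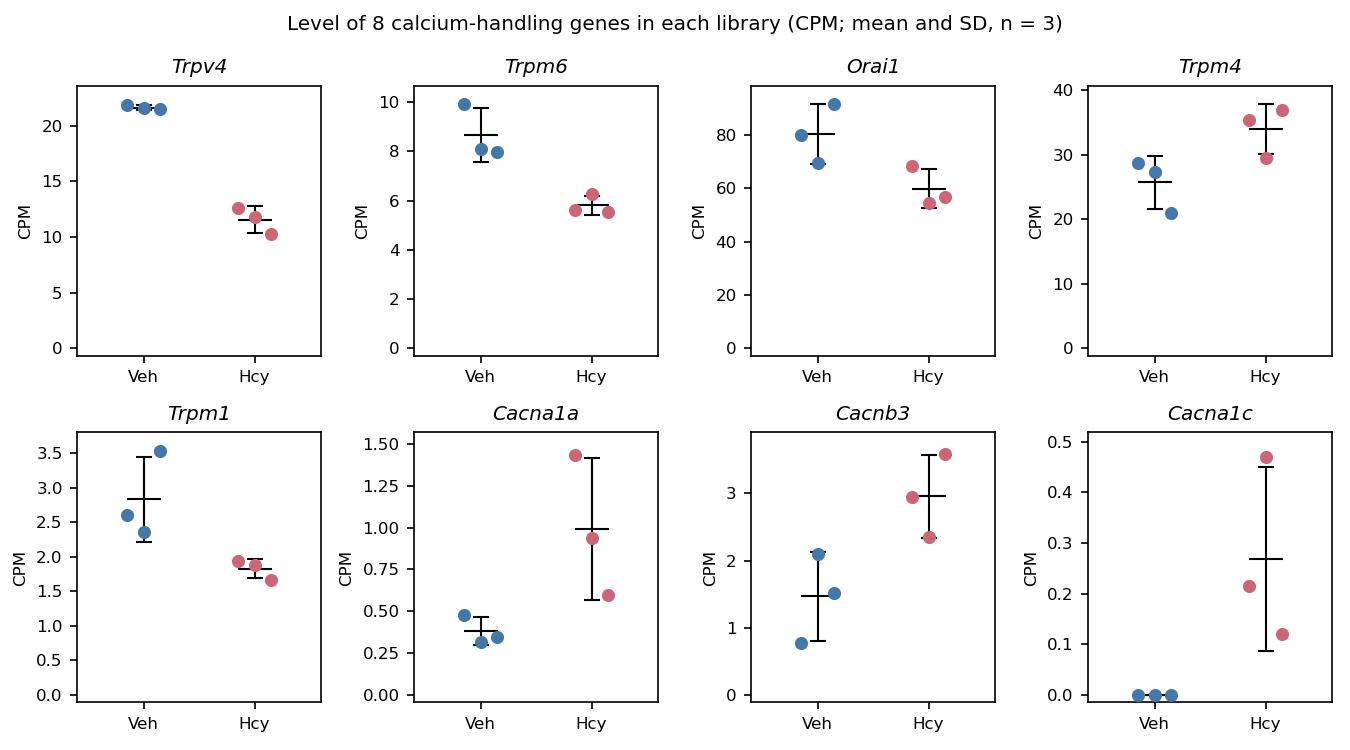
Level in CPM (y axis, linear, separate scale per gene) of Trpv4, Trpm6, Orai1, Trpm4, Trpm1, Cacna1a, Cacnb3 and Cacna1c in each of the 3 Hcy and 3 Veh libraries (points), with the group mean and SD. The 8 genes are the tested members with an unadjusted p under 0.05 (edgeR), so separation is in part fixed by that choice. The libraries separate without overlap in all 8 panels, whereas 20.1% of all genes tested did so. Cacna1c lies at 0 in every Veh library and passed the count filter through the Hcy libraries alone.

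The canonical TRP channels were scarcely measured. Trpc1, which can assemble with other TRP channels, was the most counted of them, with 15, 17 and 18 counts in Hcy and 18, 8 and 8 in Veh (0.61 ± 0.40, adjusted p = 0.578; 1.04 without Veh replicate 1). On the CPM scale its lowest Hcy library, at 1.07, was just above Veh replicate 1, also at 1.07. Trpc6, opened by diacylglycerol, had 5, 1 and 3 counts in Hcy and 0, 0 and 1 in Veh (adjusted p = 0.378). Trpc4, which is often named as an endothelial entry channel, had 4 counts over all libraries, too few to be tested, and no difference was detectable at this depth.

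In store-operated entry, all 5 members were well counted and all 5 had a negative log2 fold change, although that of Orai2 turned from -0.09 to 0.04 without Hcy replicate 2. None of them passed the correction in the edgeR fit. Orai1, the pore of the calcium release-activated channel, had 68.2, 54.5 and 56.6 CPM in Hcy and 79.8, 69.4 and 91.6 CPM in Veh. The highest Hcy library lay just below the lowest Veh library. The log2 fold change was -0.42 ± 0.12 (adjusted p = 0.140 with edgeR and 0.0340 with DESeq2), equal to 0.745 of the Veh level. Without Veh replicate 3, where Orai1 was highest, it was -0.32 (adjusted p = 0.1001, edgeR). The deposited table places Orai1 on the minus strand of chromosome 12 from 38981927 to 38995570, and its RefSeq promoter lies at chr12:39209031-39209280 on the minus strand (GRCr8), with 33 CG in capitals.
Orai1: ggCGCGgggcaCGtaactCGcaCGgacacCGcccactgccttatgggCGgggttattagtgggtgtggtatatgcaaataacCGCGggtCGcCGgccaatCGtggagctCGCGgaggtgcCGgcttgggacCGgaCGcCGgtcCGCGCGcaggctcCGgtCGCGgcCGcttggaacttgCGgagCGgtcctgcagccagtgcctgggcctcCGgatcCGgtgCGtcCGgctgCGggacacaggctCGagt

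Stim2, the ER sensor that responds to small falls of the store, had 70.7, 73.1 and 65.7 CPM in Hcy and 75.9, 81.7 and 77.7 CPM in Veh. Stim1, the sensor of deeper depletion, had 38.0, 40.6 and 41.9 CPM in Hcy and 44.7, 45.6 and 44.4 CPM in Veh. For both, every Hcy library was below every Veh library, by the small margins of -0.17 ± 0.08 and -0.16 ± 0.08 on the log2 scale (adjusted p = 0.392 and 0.411, edgeR). Orai2 and Orai3 overlapped between groups, with 10.9 to 16.5 and 14.04 to 15.9 CPM across the 6 libraries. Summed over the 5 members, the level per length was 168 ± 9.79 TPM in Hcy and 206 ± 7.52 TPM in Veh, without overlap, and Orai1 supplied most of that sum. Veh replicate 3, where Orai1 was highest, stood at 204 TPM, between the other Veh libraries. Such sums were computed for every role. Those of store-operated entry and of the auxiliary subunits separated the groups, and all others overlapped.

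Orai1 stood at 98.3 ± 10.3 TPM in Hcy and 129 ± 10.2 TPM in Veh. It made up 86.3 ± 0.710% of the ORAI family in Hcy and 88.8 ± 1.76% in Veh, also without overlap (exact two-sided permutation p = 0.1; adjusted p = 0.3 over the leading members of 9 families). Stim2 made up 69.6 ± 1.94% and 69.7 ± 0.567% of the STIM pair, so the balance of the sensors differed by less than the spread between libraries.

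**Figure D3:**
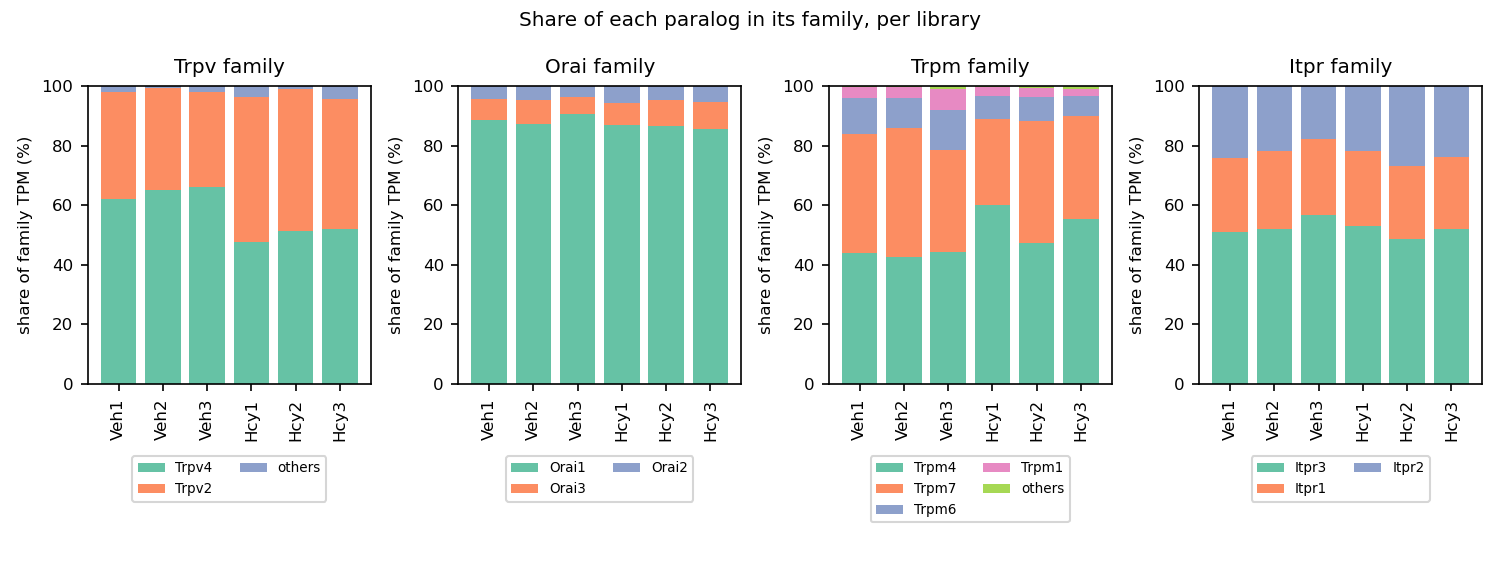
Share of the family's summed TPM (y axis, percent) taken by each member of the TRPV, ORAI, TRPM and IP3 receptor families in each of the 6 libraries (x axis). The Trpv4 share is 47.5 to 51.9% in the Hcy libraries and 62.1 to 66.1% in the Veh libraries, while the IP3 receptor shares overlap.

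The voltage-gated pores were the least abundant of the channel groups: their summed level was 0.892 ± 0.267 TPM in Hcy and 1.07 ± 0.0122 TPM in Veh. Cacna1c, which encodes the pore of the L-type channel Cav1.2 and is the channel the study is named for, had 3, 7 and 2 counts in Hcy and 0, 0 and 0 in Veh. Set against a floor of 3 counts over the Veh group, these 12 counts give a ratio of 4.13. It takes the Hcy counts as exact, so it is not a lower limit of the difference. Hcy replicate 2 supplied 7 of the 12, and without it the ratio to the floor is 2.56 and the gene falls under the minimum for testing, as it also does without Hcy replicate 1. The difference did not pass the correction (adjusted p = 0.183, edgeR; rank 924 of 14603 by p), and the mean level in Hcy was 0.0621 ± 0.0427 TPM. Cacna1c reached the minimum of 10 summed counts through the Hcy libraries alone, so its separation, and its place among the 6 higher members, was in part fixed by that filter. The same holds for its place among the 4 members higher at an unadjusted p under 0.05 (edgeR). The table places the gene on the minus strand of chromosome 4 from 150641066 to 150829913. Its RefSeq promoter, at chr4:154051749-154051998 on the minus strand (GRCr8), holds 3 CG against a median of 5 over all rat promoters, and is printed with these in capitals beside the CG-rich windows of Trpv4 and Orai1. The study places its hypomethylated Cacna1c region in an intron, downstream of a transcription start. The window printed here lies before the RefSeq start, so its CG do not bear on that region.
Cacna1c: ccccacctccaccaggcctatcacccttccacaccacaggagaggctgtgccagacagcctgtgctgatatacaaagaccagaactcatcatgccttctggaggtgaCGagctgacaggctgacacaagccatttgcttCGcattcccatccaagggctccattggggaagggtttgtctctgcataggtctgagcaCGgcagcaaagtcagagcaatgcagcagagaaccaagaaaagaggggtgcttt

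The other tested pores had 19 to 127 counts over the 6 libraries. Cacna1a, the P/Q-type pore known from nerve terminals, had 20, 14 and 10 counts in Hcy and 8, 5 and 5 in Veh (1.35 ± 0.48, adjusted p = 0.235, edgeR). Cacna1i, a T-type pore and the most abundant of the group per length, had 18, 18 and 7 counts in Hcy and 36, 24 and 24 in Veh (-0.88 ± 0.42, adjusted p = 0.411). Both separated the groups, in opposite directions, and the Cacna1i value was -0.51 without Hcy replicate 3. Cacna1d, the other L-type pore of neurons and endocrine cells, had 4, 5 and 2 counts in Hcy and 5, 10 and 16 in Veh, which overlap on the CPM scale (-1.43 ± 0.66, adjusted p = 0.390; -0.91 without Veh replicate 3). Cacna1g, another T-type pore, had 13 to 15 counts in Hcy and 13 to 22 in Veh, Cacna1s had 19 over all libraries, and Cacna1b, Cacna1e, Cacna1f and Cacna1h had 3, 2, 7 and 7.

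Of 16 auxiliary subunits, Cacnb3, Cacnb2 and Cacna2d2 were well counted. Cacnb3, a beta subunit that carries pores to the membrane, had 2.94, 2.35 and 3.58 CPM in Hcy and 0.772, 2.10 and 1.52 CPM in Veh. The lowest Hcy library was only a little above the highest Veh library, and the log2 fold change of 1.02 ± 0.36 did not pass the correction (adjusted p = 0.237, edgeR). Cacnb2, a beta subunit of heart and other tissues, was read at 2.66, 2.96 and 2.63 CPM in Hcy and 2.26, 2.36 and 2.42 CPM in Veh, also without overlap (0.23 ± 0.21, adjusted p = 0.717). Cacna2d2, an alpha-2-delta subunit, overlapped at 2.57 to 3.88 CPM in Hcy and 2.49 to 3.19 CPM in Veh. The summed level of the subunits was 5.87 ± 0.223 TPM in Hcy and 4.48 ± 0.823 TPM in Veh. Cacna2d1 and Cacna2d4 had 13 and 11 counts, and the remaining 11 subunits, gamma subunits among them, had at most 8.

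Among the channels that release the ER store, Itpr3 led. Itpr3, an IP3 receptor of low IP3 affinity, had 77.7, 87.1 and 75.6 CPM in Hcy and 101, 96.0 and 77.1 CPM in Veh, and the groups overlapped through Veh replicate 3 (-0.19 ± 0.11, adjusted p = 0.526, edgeR). Itpr1, the main IP3 receptor of Purkinje cells, had 41.7, 49.0 and 40.2 CPM in Hcy and 55.4, 55.1 and 39.5 CPM in Veh (-0.20 ± 0.14, adjusted p = 0.617). Without Veh replicate 3 both passed an adjusted p of 0.05, at -0.30 (0.0432) and -0.34 (0.0482) on the log2 scale, whereas without Veh replicate 1 they stood at -0.11 (0.781) and -0.11 (0.831). Their models are 8803 and 9927 bases long, and Veh replicate 3 is the library in which long genes were low. Itpr2, the IP3 receptor of highest affinity, ranged from 22.4 to 33.7 CPM in Hcy and from 16.9 to 33.7 CPM in Veh, and its sign depended on which library was left out.

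The ryanodine receptors, the release channels of muscle and neurons, were close to the counting floor. Ryr1 had 5, 5 and 11 counts in Hcy and 12, 20 and 11 in Veh (-0.99 ± 0.47, adjusted p = 0.404, edgeR). Ryr3 had 19 counts in all. All 12 counts of Ryr2 came from Hcy replicate 2, so this gene rests on 1 library.

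**Figure D4:**
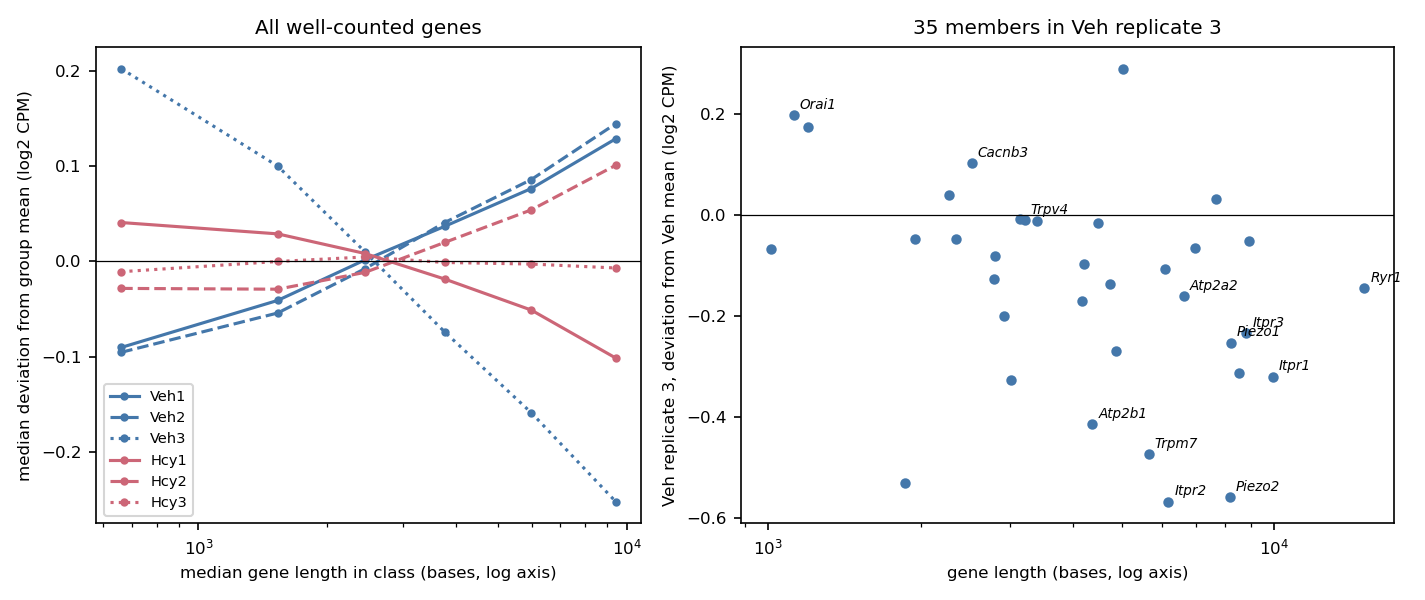
Median deviation of each library from its group mean (log2 scale, y axis) by class of gene length (bases, x axis) over 12308 well-counted genes, with 35 of the 36 well-counted members in Veh replicate 3. In Veh replicate 3 the deviation goes from 0.20 in genes under 1000 bases to -0.25 in genes over 8000, and 29 of the 36 members are below the Veh mean.

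Piezo1, the shear-sensing channel of endothelium, was the most counted member, with 40089 counts in all. It had 444, 466 and 413 CPM in Hcy and 476, 442 and 352 CPM in Veh, so that the groups overlapped (0.06, 95% interval -0.19 to 0.31). Piezo2, known from touch receptors, had 41.1 to 51.3 CPM in Hcy and 23.8 to 43.6 CPM in Veh (0.35, -0.11 to 0.81), and its value was 0.12 without Veh replicate 3, the lowest library. Piezo1 made up 90.4 ± 0.959% and 92.1 ± 1.31% of the pair. Piezo1 overlaps Ctu2 on the opposite strand, which had 1041 counts, and whether counting used strand is not given in the sources used here.

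The pumps hardly differed between groups. Atp2a2 (SERCA2), which refills the ER, had 374, 386 and 373 CPM in Hcy and 411, 384 and 336 CPM in Veh, and the 95% interval of its log2 fold change ran from -0.18 to 0.19. Atp2b1 (PMCA1), the plasma membrane pump that made up most of its family, at 95.2 ± 0.188% in Hcy, had 46.4, 53.4 and 51.3 CPM in Hcy and 52.3, 56.9 and 35.3 CPM in Veh (-0.29 to 0.42). Atp2c1 (SPCA1), the Golgi pump, had 94.4, 100.1 and 93.5 CPM in Hcy and 99.3, 103 and 81.9 CPM in Veh (-0.20 to 0.24). All 3 intervals lie within 1 log2 unit of 0. Atp2a3 had 17 counts and overlaps Itgae on the same strand, so its counts are uncertain, and Atp2b4 had 60 to 119 counts per library without separation.

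Slc8a1 (NCX1), the sodium-calcium exchanger of heart and vessels, had 4.09, 5.84 and 4.18 CPM in Hcy and 4.04, 4.14 and 2.77 CPM in Veh. The groups overlapped narrowly (0.36 ± 0.24, adjusted p = 0.582, edgeR). The value was 0.18 without Hcy replicate 2, the highest library, and 0.20 without Veh replicate 3, the lowest. Slc8a2 and Slc8a3 had 2 counts each.

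All 6 members of the mitochondrial uniporter complex were well counted and none separated the groups. Micu2, a gatekeeper of the pore and the most abundant of the 6 per length, had 72.2, 65.0 and 74.2 CPM in Hcy and 68.1, 71.2 and 66.3 CPM in Veh (0.04, 95% interval -0.14 to 0.22). Mcu, the pore itself, had 38.3 to 45.0 CPM in Hcy and 36.4 to 43.7 CPM in Veh (0.05, -0.17 to 0.28). Mcub, the pore subunit that lowers uptake, was 0.141 ± 0.0556 of Mcu in Hcy and 0.125 ± 0.0531 in Veh on the TPM scale, and Micu3 and Mcur1 overlapped likewise. Of the genes matched by letters only, Trpc4ap was lower in every Hcy library by -0.08 (adjusted p = 0.648).

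**Figure D5:**
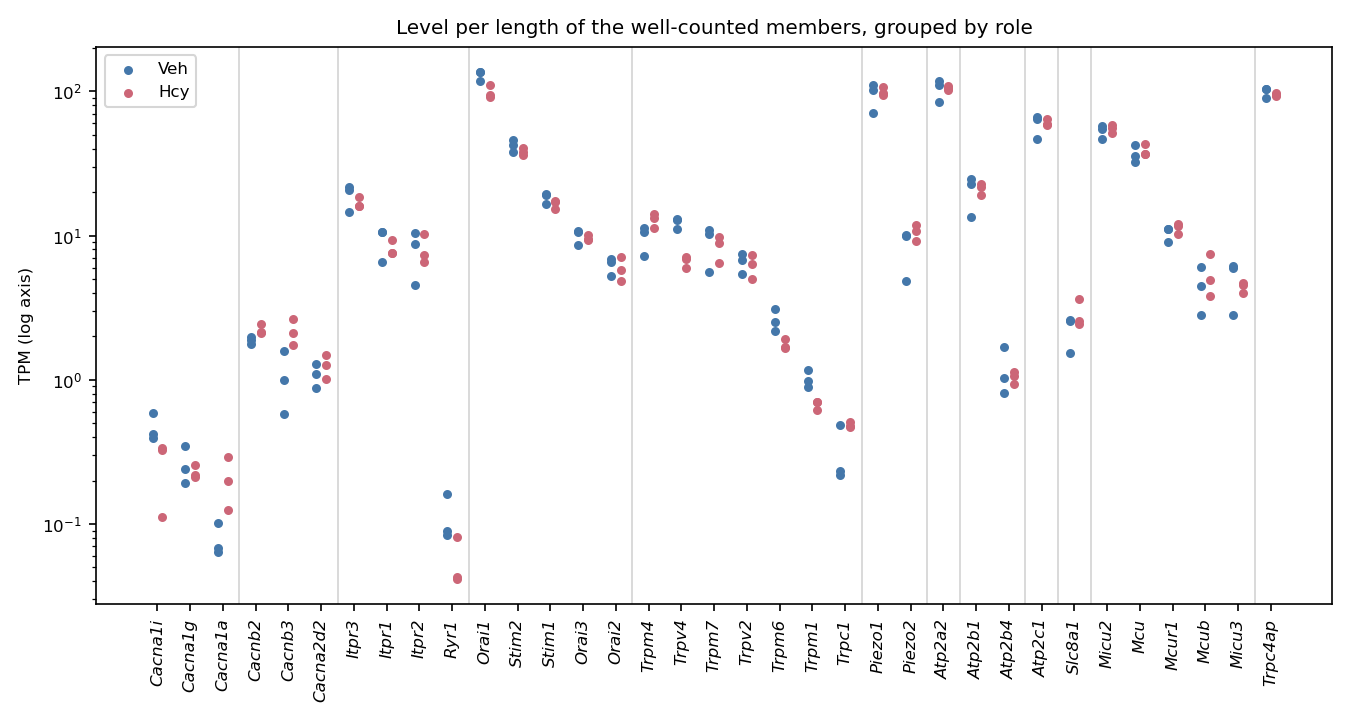
Level per length in TPM (y axis, log scale) of 35 well-counted members, grouped by role (x axis), with 1 point for each of the 3 Hcy and 3 Veh libraries. Orai1, Atp2a2, Piezo1 and the adaptor gene Trpc4ap lie highest, with group means from 94.6 to 129 TPM, and the voltage-gated pores lie below 1 TPM.

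By level per length, the channels and pumps were led by Orai1 (98.3 TPM in Hcy and 129 TPM in Veh), Atp2a2 (105 and 104 TPM) and Piezo1 (99.3 and 94.6 TPM). Their SDs in Hcy were 10.3, 3.47 and 6.48 TPM. Cacna1c ranked 16992 of 33566 genes on this scale.

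RefSeq promoters were matched for 60 of the 78 members. The median number of CG in 250 bases was 23 for the 28 well-counted members among them and 7 for the 21 untested ones, against 5 for all promoters. Of the named genes, Cacnb3 held 35 and Trpm4 held 21, while Trpm6 held 2. The windows are taken from the reference and carry no methylation values, which were not analysed here.

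Around the members, 6 further lists of calcium genes, 108 of 134 of whose genes were tested, gave 2 genes past an adjusted p of 0.05 and none past both thresholds with edgeR, with 15 at an unadjusted p under 0.05. Over all genes tested, the shares were 2.34%, 0.486% and 13.4%, so the counts for these lists are close to the background. Rcn2, an ER calcium-binding protein of the reticulocalbin family, rose from 113, 114 and 123 CPM in Veh to 194, 205 and 195 CPM in Hcy (0.76 ± 0.07, adjusted p = 0.00115). Gem, a small GTPase that binds channel beta subunits and lowers L-type current, fell from 23.1, 26.1 and 29.6 CPM to 18.3, 16.3 and 16.4 CPM (-0.63 ± 0.12, adjusted p = 0.0304). Both separated the groups, and Rcn2 passed in every alternative. Gem did not pass without Hcy replicate 1, 2 or 3 or Veh replicate 2 (adjusted p = 0.0955, 0.142, 0.169 and 0.0955, edgeR). It also did not pass with the replicate number as a block.

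The median log2 fold change was -0.11 over the 31 tested partners and regulators of the channels, of which 22 were below 0 and 1, Gem, passed. It was -0.04 over 16 other calcium-permeable channels and exchangers, 0.02 over 20 genes of the calmodulin, calcineurin, NFAT and CaM kinase list, and -0.03 over 19 S100 proteins and annexins, with none past the adjusted threshold in these 3 lists. The phospholipase C isoforms, which make IP3, had 9 of 11 above 0 with a median of 0.23, and again none passed. The buffers of the cytosol and ER had 8 of 11 above 0 with a median of 0.04, and Rcn2 passed.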

How the data were processed

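Total RNA of 6 rBMEC cultures was enriched for poly(A) RNA and sequenced as paired ends by the authors, who deposited whole-number counts per gene with a gene length in bases. This length is a unit of its own kind and served for TPM and for grouping genes by length. The submitters' processing notes name fastp, HISAT2 2.2.1, StringTie 2.2.3, Cufflinks, featureCounts 2.0.6, DESeq2 1.42.0 and the build mRatBN7.2 (rn7). The order of these steps and the strand setting are not given in the sources used here. Whether the deposited gene positions are on that build is not stated with them. The positions that the study gives on mRatBN7.2 for its Cacna1c region lie outside the deposited span of that gene. A second deposited table holds the authors' normalised values, fold changes and p-values and was not used.

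Groups were taken from the labels. Genes reaching 10 counts in the sum of all 6 libraries entered the fit with edgeR 4.0.16 (TMM scaling, quasi-likelihood test, treatment as the only term, R 4.3.3), and p-values were adjusted by Benjamini-Hochberg over all 14603 genes. A called gene had to meet both an adjusted p no higher than 0.05 and a log2 fold change no smaller than 1 in size. Values with ± are SD over 3 libraries for levels and shares and SE for log2 fold changes. CPM (counts for each 1000000 counts) used TMM-scaled library totals, and TPM used the deposited lengths. The scripts were tested on simulated data. Intervals are at 95%, and floors of 3 counts cover counting error only.

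Values of all 6 libraries are given for the 12 tested members with the smallest p, for the most abundant member per length of each role, and for genes of the other lists past the adjusted threshold. Stim1, Itpr1, Trpv2 and Trpc1 were added after their values were seen. The members, the marker lists (endothelial, pericyte and smooth muscle, fibroblast, neuron, astrocyte, microglia and macrophage, oligodendrocyte, epithelial) and the 6 calcium lists were chosen with earlier results of these data known. Alternatives were DESeq2 1.42.0, other scalings and filters, the replicate number as a block, a prior count of 2 and leaving out each library. Of the members, 2 enter the counts but are not reported singly here. Promoters came from RefSeq (GRCr8), and figures were drawn with matplotlib 3.10.9.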

Additional observations from a re-analysis of the deposited data

How the results depend on the processing

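Over the alternatives run (DESeq2, other scalings and filters, a replicate block, a prior count, and each library left out), Trpv4 kept its sign and passed the adjusted p, with log2 fold changes of -0.97 to -0.83 and adjusted p of 0.00218 to 0.0407 when a library was left out. No member was called at both thresholds in any of these fits. On unadjusted p, 3 members (Cacna1a, Cacnb3 and Cacna1c) and 374 of all genes were. Of these members, Cacna1c reached the filter through the Hcy libraries alone. Members past the adjusted p alone numbered 1 in the reported fit, 2 with DESeq2 and 1 to 4 with a library left out, the 4 being without Veh replicate 3 (Trpv4, Itpr3, Itpr1 and Trpm6). Of all genes tested, 2.34%, 4.14% and 0.557 to 6.67% passed the adjusted p alone in these fits, with the 6.67% also without Veh replicate 3. All genes called numbered 71, 109 with no filter on low counts, and 39 to 112 with a library left out. Genes of the other calcium lists past the adjusted p alone numbered 2, 4 with DESeq2, 1 with the replicate block and 1 to 8 with a library left out, counts that were added after the data were seen. The median of the members was -0.08, and -0.10 to 0.016 with a library left out.

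Correlations of same-numbered deviations were 0.00873, 0.208 and 0.0581, and those of different-numbered ones ran from -0.217 to 0.162. Deviations centred in groups of 3 constrain these values, so they cannot show whether the replicate numbers pair the samples. With the block, Trpv4 was at -0.91 (adjusted p = 0.0113), Gem no longer passed (adjusted p = 0.0525) and the median of the members was -0.029.

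Of 45 genes followed, 33 kept their sign in every alternative that could be fitted and 12 members changed it when some library was left out: Itpr2 (-0.21 to 0.24), Atp2b1 (-0.12 to 0.20), Atp2b4 (-0.34 to 0.12), Piezo1 (-0.057 to 0.15), Atp2a2 (-0.075 to 0.069), Atp2c1 (-0.074 to 0.081), Trpm7 (-0.30 to 0.046), Trpv2 (-0.23 to 0.058), Mcu (-0.020 to 0.14), Mcub (-0.056 to 0.49), Orai2 (-0.26 to 0.039) and Cacna1g (-0.40 to 0.016). The cause was not tested. Depth limits the 12 sparse tested members most. Their widest interval reaches 3.25 log2 units on either side, and Cacna1c and Ryr2, at 0 counts in Veh, have no interval.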

Other observations

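Cracr2b, a calcium-binding regulator of ORAI channels, had 11, 128 and 18 counts in Hcy replicates 1, 2 and 3 and 8, 13 and 2 in the Veh replicates, so that most of its counts came from Hcy replicate 2, the library that also held all counts of Ryr2. The ratio of Atp2a2 to Itpr3, the refilling pump over the leading release channel, was 6.28 ± 0.345 in Hcy and 5.50 ± 0.253 in Veh on the TPM scale (SD, n = 3), without overlap (exact two-sided permutation p = 0.1, the smallest possible), and it was among 7 ratios computed.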
